A study of Mus musculus with 72 samples.

Results

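The daily time course of the liver of chow-fed mice was followed in 18 arrays, those whose titles name liver, chow (CC) and a zeitgeber time, out of 72 arrays in the series. Zeitgeber time (ZT) counts hours from lights on, and 3 arrays were taken at each of 6 time points (ZT0, ZT4, ZT8, ZT12, ZT16 and ZT20). The mice were male C57BL/6J, 8 weeks old at the start, kept in 12 h light and 12 h dark with free access to normal chow for 4 weeks. All groups described here share this sex, strain, age, diet and light cycle, and differ only in time. The protocol shared by the whole series also mentions a fructose gavage, sucrose in drinking water and a collection at ZT0 and ZT12, without stating whether any of this applies to these arrays. Nothing in the labels ties a replicate to an animal of its own; the p-values here speak for the spread among these arrays, which may be technical. Each array measured total RNA of whole liver on an Affymetrix mouse gene array.

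The question put to these 18 arrays was which genes follow a daily rhythm in liver and when each function peaks. A liver cell keeps time with a feedback loop. CLOCK or NPAS2 pairs with BMAL1 (gene Arntl) and activates genes through the E-box sequence, among them the Per and Cry repressors and the nuclear receptor genes Nr1d1 and Nr1d2 (REV-ERB), which in turn hold down Arntl. The PAR bZIP factors DBP, TEF and HLF and the repressor NFIL3 pass the rhythm on to metabolic genes through the D-box sequence, and feeding, body temperature and glucocorticoids add rhythms of their own. Mice eat mainly in the dark phase, from ZT12 to ZT24.

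The promoters of 6 rhythmic genes are shown because each carries the letters of a clock or heat shock element. They come from the RefSeq promoter table of build GRCm38.p6, run from 250 bases before to 50 bases after the gene's start, 5′ to 3′ on the gene's own strand, and have the element in capitals. Arntl shows the ROR element core TAGGTCA, read by ROR and REV-ERB proteins; Ciart and Per1 show the E-box CACGTG; Per3 shows the D-box TTATGTAA; Hsph1 and Chordc1 show the heat shock element, searched as GAA, TTC and GAA with 2 bases of any kind between each.
Arntl (chr7:113207261-113207560, plus strand): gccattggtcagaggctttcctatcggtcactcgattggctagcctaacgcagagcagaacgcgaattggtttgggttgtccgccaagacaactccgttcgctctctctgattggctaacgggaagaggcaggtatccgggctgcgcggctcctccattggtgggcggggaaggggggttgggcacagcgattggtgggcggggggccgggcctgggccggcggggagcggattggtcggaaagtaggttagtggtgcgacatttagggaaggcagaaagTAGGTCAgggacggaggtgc
Ciart (chr3:95882179-95882478, minus strand): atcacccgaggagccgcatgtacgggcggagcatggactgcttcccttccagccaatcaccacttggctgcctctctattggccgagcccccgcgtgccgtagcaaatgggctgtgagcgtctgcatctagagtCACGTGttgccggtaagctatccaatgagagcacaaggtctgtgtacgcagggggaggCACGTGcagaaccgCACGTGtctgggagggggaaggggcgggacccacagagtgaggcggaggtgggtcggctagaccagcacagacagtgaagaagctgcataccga
Per1 (chr11:69098699-69098998, plus strand): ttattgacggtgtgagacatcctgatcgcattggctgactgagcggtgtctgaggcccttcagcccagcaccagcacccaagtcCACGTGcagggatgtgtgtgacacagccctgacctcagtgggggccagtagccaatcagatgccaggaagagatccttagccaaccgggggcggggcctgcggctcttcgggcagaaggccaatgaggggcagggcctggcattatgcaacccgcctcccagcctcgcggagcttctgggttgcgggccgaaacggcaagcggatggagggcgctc
Per3 (chr4:151044616-151044915, minus strand): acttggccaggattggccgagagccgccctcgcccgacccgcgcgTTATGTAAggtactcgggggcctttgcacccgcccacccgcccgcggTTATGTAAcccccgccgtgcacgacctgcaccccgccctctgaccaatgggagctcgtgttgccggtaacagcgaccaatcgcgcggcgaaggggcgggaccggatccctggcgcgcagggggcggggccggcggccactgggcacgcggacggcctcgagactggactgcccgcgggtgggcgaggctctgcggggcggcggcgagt
Hsph1 (chr5:149636287-149636586, minus strand): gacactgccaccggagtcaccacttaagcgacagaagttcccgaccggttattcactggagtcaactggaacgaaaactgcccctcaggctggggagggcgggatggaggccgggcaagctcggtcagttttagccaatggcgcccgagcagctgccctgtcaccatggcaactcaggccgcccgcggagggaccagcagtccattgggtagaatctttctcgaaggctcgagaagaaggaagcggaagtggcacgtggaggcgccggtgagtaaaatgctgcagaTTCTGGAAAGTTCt
Chordc1 (chr9:18292017-18292316, plus strand): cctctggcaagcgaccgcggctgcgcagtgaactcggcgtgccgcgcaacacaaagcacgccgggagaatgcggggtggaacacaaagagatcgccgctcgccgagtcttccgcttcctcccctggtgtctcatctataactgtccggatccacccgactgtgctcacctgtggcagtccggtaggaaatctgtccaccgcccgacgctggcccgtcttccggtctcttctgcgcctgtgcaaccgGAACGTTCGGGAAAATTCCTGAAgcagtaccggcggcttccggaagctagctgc
Counting from the gene's start as 0, the element began at 30 in Arntl, at -116, -58 and -44 in Ciart, at -166 in Per1, at -205 and -158 in Per3, and at 36 in Hsph1, while Chordc1 held 3 overlapping matches that began at -4, 1 and 6. Both strands were searched. Only the element named for each gene is in capitals, and the Hsph1 stretch also holds the E-box letters in lower case. The E-box was present in 7.15% of all 32851 promoters of the table, the D-box in 0.938%, the ROR element core in 2.61% and the heat shock element in 0.603%. Of the rhythmic core clock genes, 12 had a promoter in the table, and the E-box stood in 4 of them (Bhlhe41, Ciart, Cry1 and Per1). A gene was counted if any of its promoters held the element, whereas the shares above are per promoter, so the units differ. Only 9782 of 12462 tested genes (78.5%) matched a promoter, too few to compare element shares between peak times, and no such comparison is made. A match of letters is a description of the sequence and not evidence of binding.

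A pair of arrays went against their labels, and this bears on every result below. The library labelled ZT8 replicate 12 and the library labelled ZT12 replicate 17 each lay nearer to the other's time point. Nr1d1, the REV-ERB alpha gene, had an intensity of 1144 in ZT8 replicate 12, against 3410 and 3593 in the other ZT8 arrays. It had 3367 in ZT12 replicate 17, against 1013 and 1226 in the other ZT12 arrays. Dbp had 1360 in ZT8 replicate 12, against 1865 and 2496 in the other ZT8 arrays, and 2692 in ZT12 replicate 17, against 1282 and 1328 in the other ZT12 arrays. In both genes each array thus had a level close to that of the time point 4 h away. Not every clock gene did so: in ZT12 replicate 17 Per1 had 815 and Per3 had 797, above all arrays of both time points. Each array was then set against the mean profile of every time point, made without that array and without this pair. Over 35 clock and clock output genes that were rhythmic without this pair, ZT8 replicate 12 stood at a distance (root mean square, log2) of 0.724 from ZT8 and 0.360 from ZT12, and ZT12 replicate 17 at 0.557 from ZT12 and 0.467 from ZT8. Over 1748 other genes that were rhythmic without it the first stood at 0.296 from ZT8 and 0.224 from ZT12, and the second at 0.278 from ZT12 and 0.197 from ZT8. Of the other 16 arrays, 15 were nearest to their own label in each gene set. The exceptions were ZT16 replicate 9 over the clock genes (0.571 from ZT16 and 0.560 from ZT20) and ZT8 replicate 10 over the other genes (0.201 from ZT8 and 0.194 from ZT4). Both gene sets were called in a fit to these 16 arrays as labelled, so their agreement with the labels was partly built in. The pair had no part in that choice, so 15 of 16 is no fair yardstick for the pair. For the other ZT8 and ZT12 arrays the profile of their own time was a single array. The intestine arrays that carry the same numbers, ZT8 replicate 12 and ZT12 replicate 17, were nearest to their own labels, at 0.187 and 0.178. No array was moved to another time point. Results are given with all 18 arrays as labelled, and gene list counts that change by over 1.5 times are also given without this pair.

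**Figure D1:**
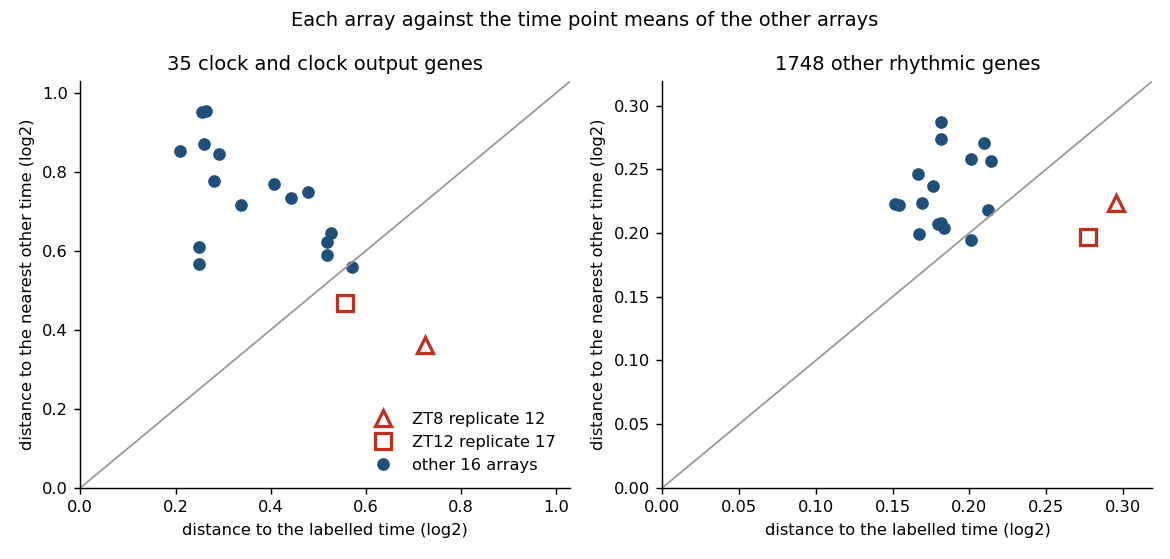
Distance of each chow liver array from the mean profile of its labelled time point (x axis, root mean square difference in log2) and from the nearest other time point (y axis, same unit), over 35 clock and clock output genes (left) and 1748 other rhythmic genes (right). The triangle (ZT8 replicate 12) and the square (ZT12 replicate 17) lie below the line of equal distance in both panels, with 1 other array in each panel just below it.

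Over all tested genes, this pair (0.986 each) did not have the lowest mean correlation with the other arrays of its time points. The lowest values belonged to ZT4 replicate 6 (0.983) and ZT16 replicate 8 (0.985). Median intensity was 105 to 116 per array, the mean correlation of an array with the others of its time point was 0.983 to 0.992, and no arrays were identical. Liver identity was clear: all 11 hepatocyte markers with a probe set were measured, with a mean log2 level of 13.33 to 13.41 at the 6 time points, and 1 of 11 (Fgb, a fibrinogen chain) was rhythmic, and 0 without this pair (adjusted p of Fgb 0.0503, limma). No neutrophil marker of 8 passed the filter on low values.

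With a 24 h cosine fitted to each gene, 1738 of 12462 tested genes were called rhythmic at an adjusted p under 0.05 (limma, Benjamini-Hochberg), a share of 13.9%. A test for any difference between the 6 time points called 628 genes (5.04%), of which 587 were also called by the cosine. The rhythms were mostly small. Amplitude, how far the fitted curve climbs over its own mean (log2), had a median of 0.18 among called genes (quartiles 0.14 and 0.26), or 1.29-fold from trough to peak, and a median of 0.08 over all genes tested. An amplitude of at least 0.5 was reached by 101 genes and of at least 1 by 15. Without ZT8 replicate 12 and ZT12 replicate 17 the count was 1783 (14.3%), 1395 genes were called both times, and the peaks of these genes moved by a median of 0.223 h in either direction (upper quartile 0.396 h). No gene passed the test for an added 12 h component (limma, 0 of 12462, or 0.0%, smallest adjusted p 0.206), although 1169 had an unadjusted p under 0.05.

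Peak times bunched at the end of the dark phase. Of the 1738 rhythmic genes 625 (36%) peaked from ZT20 to ZT24 and 323 (18.6%) from ZT0 to ZT4, against 239, 203, 168 and 180 in the windows that start at ZT4, ZT8, ZT12 and ZT16. The window from ZT20 to ZT24 stayed the fullest without ZT8 replicate 12 and ZT12 replicate 17 (29.7%), after quantile normalization (25.5% of 1567 genes) and after centring each array on its median (28.7% of 1155 genes). The rest of the order did not hold. Under both scalings the window from ZT8 to ZT12 came next (322 and 221 genes), and the window from ZT0 to ZT4 held 164 and 109. Without ZT8 replicate 12 and ZT12 replicate 17 the counts moved the other way, to 434 from ZT0 to ZT4 and 124 from ZT8 to ZT12, then the emptiest window. The median log2 level of the tested genes was 8.47, 8.55 and 8.50 in the ZT12 arrays and 8.53 to 8.6 in the other 15, and its part in the peak times was not tested. The standard error of a peak time had a median of 0.86 h, so genes near a window's edge could lie on either side.

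**Figure D2:**
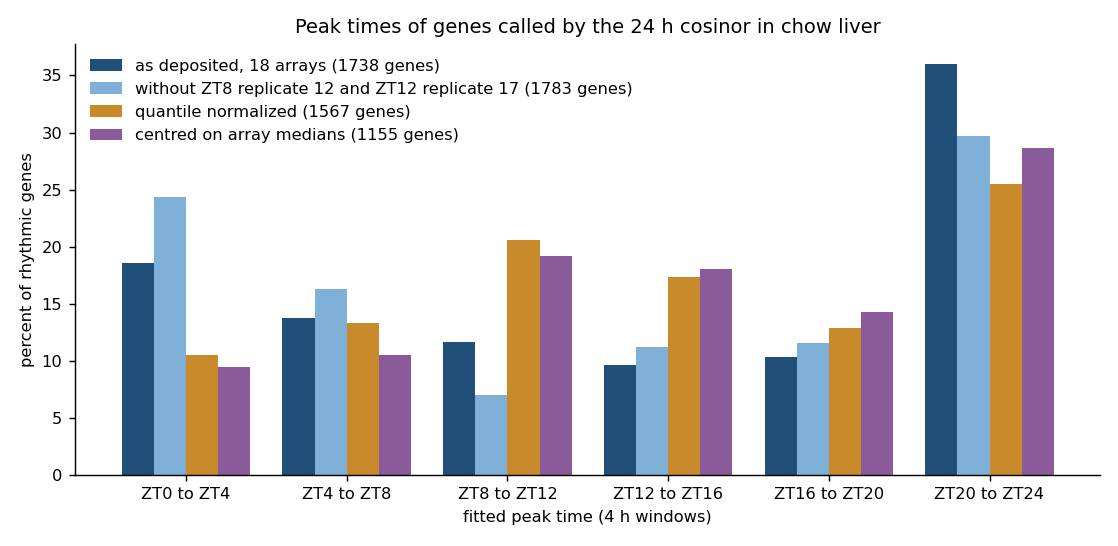
Share of rhythmic genes (y axis, percent) whose fitted peak falls in each 4 h window (x axis) in the deposited values, without ZT8 replicate 12 and ZT12 replicate 17, after quantile normalization and after median centring. The window from ZT20 to ZT24 is the highest bar in all 4 settings, from 25.5% to 36%.

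The clock itself carried the largest rhythms. Of the 10 largest amplitudes 9 belonged to the core clock and clock output lists: Npas2 (2.36 ± 0.22 SE), Ciart (2.33 ± 0.21), Nr1d1 (2.01 ± 0.25), Dbp (1.79 ± 0.15), Usp2 (1.63 ± 0.16), Arntl (1.39 ± 0.13), Noct (1.31 ± 0.15), Per1 (1.29 ± 0.12) and Per3 (1.29 ± 0.11). The exception was Slc34a2, a sodium-phosphate cotransporter gene (1.54 ± 0.22). Of the 19 core clock genes 15 were rhythmic, with 1 of the 15 (Bhlhe40) lost without ZT8 replicate 12 and ZT12 replicate 17. Their median amplitude, over all 19, was 0.82. Of the 23 clock output genes 21 were rhythmic, with a median amplitude of 0.63. Both lists hold genes known for daily rhythms in liver, so these counts describe the time course and are no independent evidence for it.

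The activators peaked at the turn of night to day. Arntl, which encodes BMAL1, had intensities of 655, 696 and 732 at ZT0, 207, 337 and 209 at ZT4, 210, 82.1 and 143 at ZT8, 204, 58.2 and 167 at ZT12, 474, 488 and 572 at ZT16, and 726, 730 and 853 at ZT20. Every array at ZT16, ZT20 and ZT0 lay above every array at ZT4, ZT8 and ZT12, and ZT20 and ZT0 overlapped. The fitted peak of Arntl was at ZT21.0 ± 0.4 (SE), 6.87-fold above the trough (adjusted p = 8.95e-06). Npas2, the CLOCK paralogue, had 628, 611 and 538 at ZT0, 109, 132 and 115 at ZT4, 83.3, 36.9 and 10.6 at ZT8, 14.8, 21.8 and 15.2 at ZT12, 42.4, 18.5 and 169 at ZT16, and 797, 617 and 889 at ZT20. Arrays at ZT20 and ZT0 lay far above all others, and 1 of the 3 ZT16 arrays (169) stood above every ZT4 array. Its peak was at ZT22.6 ± 0.4. On the log2(intensity + 16) scale its 26.5-fold swing is understated, since values at ZT12 are near the pseudocount of 16. Clock peaked with it, at ZT22.5 ± 0.4, with a smaller amplitude of 0.50 ± 0.05.

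The REV-ERB genes followed in the light phase. Nr1d1 had 2476, 2653 and 3110 at ZT0, 4636, 3751 and 3489 at ZT4, 3593, 3410 and 1144 at ZT8, 1226, 3367 and 1013 at ZT12, 385, 327 and 237 at ZT16, and 177, 232 and 295 at ZT20. Its lowest array at ZT0 had 2476 while its highest at ZT20 had 295, and the ZT8 and ZT12 arrays overlapped. The peak of Nr1d1 was at ZT5.4 ± 0.5 and its adjusted p = 0.000103 moved to 2.5e-06 without ZT8 replicate 12 and ZT12 replicate 17. Nr1d2 peaked later, at ZT8.1 ± 0.5 (amplitude 1.02 ± 0.14). Rora, whose product acts on the same element, had an adjusted p of 0.227.

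The E-box repressors came in order. Ciart, which encodes the repressor CHRONO, peaked at ZT10.0 ± 0.4, Per3 at ZT10.6 ± 0.3, Cry2 at ZT11.3 ± 0.5, Per1 at ZT12.3 ± 0.4, Per2 at ZT13.2 ± 0.5 and Cry1 last at ZT18.0 ± 0.5. The differences between neighbours in this order were not tested. Per2 had 220, 197 and 314 at ZT0, 345, 319 and 447 at ZT4, 498, 699 and 1120 at ZT8, 838, 700 and 965 at ZT12, 908, 1160 and 737 at ZT16, and 585, 678 and 508 at ZT20. Its ZT0 arrays were below all others, and its arrays from ZT8 to ZT20 were above those of ZT0 and ZT4 without overlap. Cry1 had 166, 201 and 201 at ZT0, 91.3, 147 and 136 at ZT4, 116, 110 and 253 at ZT8, 206, 141 and 232 at ZT12, 366, 370 and 364 at ZT16, and 422, 463 and 463 at ZT20. The ZT20 arrays of Cry1 stood above those of ZT16, and those above every other array, with ZT0, ZT4, ZT8 and ZT12 overlapping. The E-box repressor gene Bhlhe41 (DEC2) peaked at ZT7.9 ± 0.7. Its paralogue Bhlhe40 (adjusted p = 0.0489) and Fbxl21 (adjusted p = 0.0489) stood at the threshold and each lost the call in 17 of the alternative settings. Csnk1d and Csnk1e, kinase genes whose products act on PER proteins, had amplitudes of 0.05 and 0.04 and were not called.

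**Figure D3:**
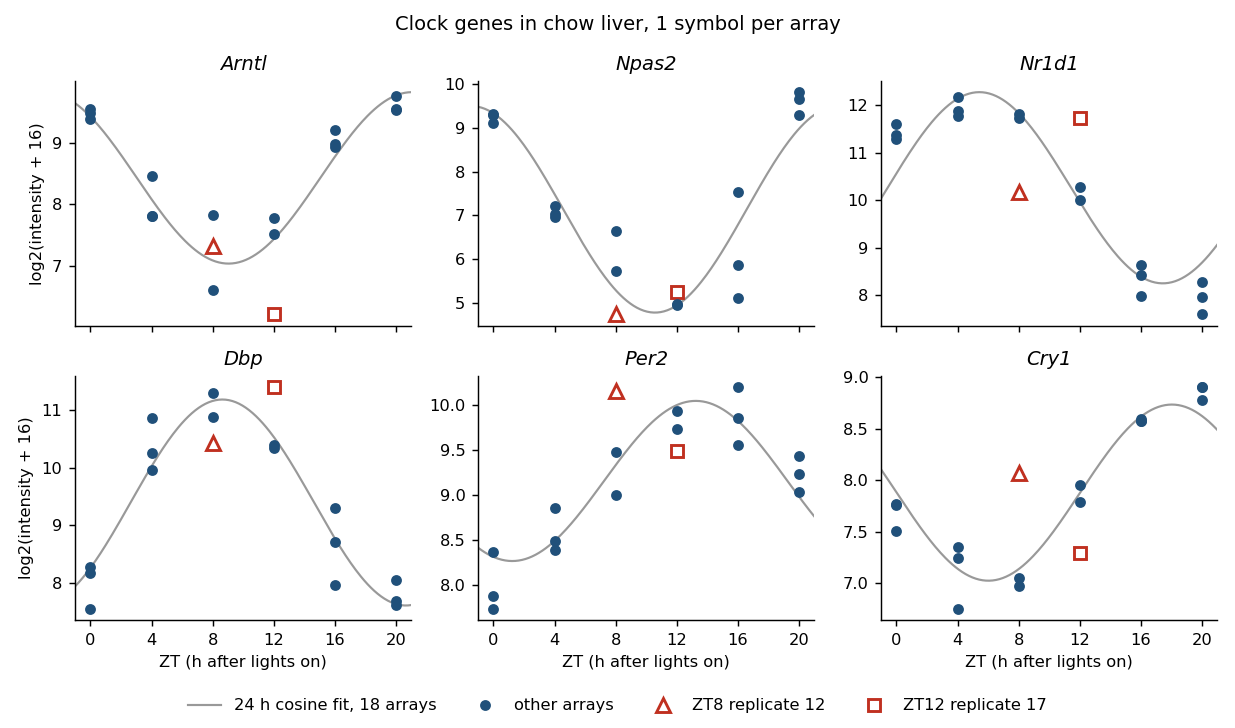
Level of Arntl, Npas2, Nr1d1, Dbp, Per2 and Cry1 (y axis, log2(intensity + 16)) by ZT (x axis, hours) in chow liver, with 1 symbol per array and the fitted 24 h cosine as a grey line. The open triangle (ZT8 replicate 12) and the open square (ZT12 replicate 17) lie apart from the filled points of their own time in Nr1d1, Dbp, Per2 and Cry1.

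Most clock output genes peaked around dusk or before dawn. Dbp, the D-box activator gene, had 170, 272 and 292 at ZT0, 1844, 980 and 1212 at ZT4, 1865, 2496 and 1360 at ZT8, 1282, 2692 and 1328 at ZT12, 613, 404 and 232 at ZT16, and 189, 249 and 180 at ZT20. Its 9 arrays from ZT4 to ZT12 were all above the 9 others. The fitted peak of Dbp was at ZT8.6 ± 0.3, with a 12.0-fold swing (adjusted p = 3.27e-06). Its relatives Tef and Hlf peaked at ZT10.4 ± 0.3 and ZT11.6 ± 0.9, with amplitudes of 0.68 and 0.20. Near dusk stood also Por, the electron donor of cytochrome P450 enzymes (ZT10.9), the ubiquitin protease gene Usp2 (ZT11.8), the cell cycle kinase gene Wee1 (ZT11.9), Nampt, the rate-limiting enzyme of NAD salvage (ZT12.1), the glycogen synthase gene Gys2 (ZT12.1) and the deadenylase gene Noct (ZT12.4). Before dawn stood Nfil3, the D-box repressor (ZT21.8 ± 0.5), with the fatty acid elongase gene Elovl3 (ZT21.7), the vasopressin receptor gene Avpr1a (ZT22.0), the SREBP regulator Insig2 (ZT22.2) and the glycogen-targeting subunit Ppp1r3c (ZT22.2). Outside these times stood Klf9, a Krueppel-like factor gene (ZT6.3) and Lonrf3 (ZT17.9, amplitude 0.79). Klf10 (adjusted p = 0.0521) and Herpud1 (0.119) were not called.

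Lipogenic genes peaked early in the night. Of 21 genes of de novo lipogenesis, which turns sugar into fat, 10 were rhythmic, against 13.9% of all genes tested, and 9 of the 10 peaked from ZT12 to ZT16. The test for any time difference called 3 of the 21, against 5.04% of all genes tested. The list's median amplitude was 0.29, against 0.08 over all genes tested, and the count was 9 to 13 over the other settings and 8 to 12 with single arrays left out. Elovl6, the elongase of palmitate, had 5310, 3746 and 5149 at ZT0, 4929, 3268 and 5521 at ZT4, 5791, 6227 and 6721 at ZT8, 7226, 7164 and 9724 at ZT12, 8672, 7215 and 8759 at ZT16, and 7437, 6403 and 5786 at ZT20. All its arrays at ZT12 and ZT16 were above all arrays at ZT0, ZT4 and ZT8, and the ZT20 arrays overlapped with both. Its peak was at ZT14.3 ± 0.5 (adjusted p = 0.000454). Lpin1, a phosphatidate phosphatase gene, had a larger amplitude (1.02 ± 0.15, peak ZT12.4 ± 0.6), as did the lipogenic factor Thrsp (0.98 ± 0.17, ZT13.0 ± 0.7). Thrsp had 2423, 910 and 3521 at ZT0, 1814, 1534 and 3742 at ZT4, 5144, 6369 and 8440 at ZT8, 8067, 5418 and 8492 at ZT12, 6488, 6327 and 4999 at ZT16, and 6134, 3203 and 4139 at ZT20. Every ZT8, ZT12 and ZT16 array of Thrsp was above every ZT0 and ZT4 array. The regulator Srebf1 peaked at ZT11.8 ± 0.8, ahead of Fasn (fatty acid synthase, ZT13.9 ± 0.9), Acly (ATP citrate lyase, ZT14.4 ± 0.7), Acacb (ZT14.4 ± 0.8) and Acaca (ZT14.9 ± 0.8), the acetyl-CoA carboxylases, an order that was not tested. Scd1, the stearoyl-CoA desaturase gene, had an amplitude of 0.03 and an adjusted p of 0.71. Over all 21 genes the mean log2 level was 11.83 at ZT0, 11.79 at ZT4, 12.17 at ZT8, 12.42 at ZT12, 12.27 at ZT16 and 12.16 at ZT20. Arrays of 1 time point differed most at ZT0 and ZT4: ZT0 replicate 22 had a mean of 11.47 and ZT4 replicate 6 one of 11.42, against up to 12.09 and 12.12 in the other arrays of those times.

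Rhythmic glycolysis genes peaked mostly at night. Of 19 tested glycolysis genes 9 were rhythmic, against 13.9% of all genes tested, with 2 peaks from ZT8 to ZT12, 2 from ZT12 to ZT16 and 5 from ZT16 to ZT20. The test for any time difference called only 1 of the 19, against 5.04% of all genes tested. The list's median amplitude was 0.11, and its count ran from 6 to 13 over the other settings, so membership is loose. Pfkfb1, which encodes the liver's switch between glycolysis and gluconeogenesis, peaked at ZT15.4 ± 0.7 with an amplitude of 0.52 ± 0.10. It had 943, 803 and 1191 at ZT0, 831, 575 and 830 at ZT4, 852, 1034 and 1713 at ZT8, 1583, 1021 and 1794 at ZT12, 1762, 1432 and 1691 at ZT16, and 1607, 1157 and 1401 at ZT20. The 3 ZT16 arrays of Pfkfb1 were above every ZT0 and ZT4 array, while ZT8 and ZT12 each spread over both levels, with ZT8 replicate 12 the high one and ZT12 replicate 17 the low one. Its paralogue Pfkfb3 peaked earlier, at ZT10.4 ± 0.7 (0.88 ± 0.15). Gapdh, a glycolytic dehydrogenase gene, had an amplitude of 0.01. Of 20 genes of gluconeogenesis and glycogen 7 were rhythmic. Of these 7, 1 peaked from ZT8 to ZT12, 4 from ZT12 to ZT16 and 2 from ZT20 to ZT24. Pck1, phosphoenolpyruvate carboxykinase, peaked at ZT8.9 ± 0.8, Gys2 at ZT12.1 and Slc37a4, the glucose-6-phosphate transporter, at ZT13.5 ± 0.7. The lactate carrier Slc16a1 and Ppp1r3c peaked at ZT22.2. G6pc had an amplitude of 0.04 (adjusted p = 0.85). The test for any time difference called 5 of these 20 genes.

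Cholesterol synthesis and fatty acid oxidation had few called rhythms by the cosine, which called 13.9% of all genes tested. Of 25 cholesterol synthesis genes 1 was called, and 0 without ZT8 replicate 12 and ZT12 replicate 17 (limma), while 4 of 25 had an unadjusted p under 0.05 with all arrays. Arrays of 1 time point differed most at ZT4, where the mean log2 level of these genes ran from 9.69 to 10.89 (SD 0.69). A low count under such spread does not show a flat time course. The list's median amplitude of 0.15 was above that of all genes (0.08), with Sqle at 0.28 ± 0.17 and Hmgcs1 at 0.25 ± 0.16, neither called. Of 37 tested PPARA targets and fatty acid oxidation genes 3 were called, while 13 had an unadjusted p under 0.05 with all arrays (limma). The called count was 5 without ZT8 replicate 12 and ZT12 replicate 17 or without ZT8 replicate 12 alone. It was 8 with all 36 liver arrays, chow and ketogenic, in the fit. The SD of this list's mean log2 level between arrays was 0.21 at ZT0, 0.34 at ZT4 and at ZT8. It was 0.04 at ZT12, 0.37 at ZT16 and 0.08 at ZT20. The time point means ran from 10.71 to 10.89, so this low count does not show a flat time course either. Pdk4, the kinase that turns off pyruvate dehydrogenase, had the largest rhythm (0.88 ± 0.13, peak ZT21.1 ± 0.5), and Etfdh (0.20 ± 0.04) and Acaa1a (0.19 ± 0.05) were small. Cpt1a, the entry step of mitochondrial fatty acid oxidation, had 0.17 ± 0.06 (adjusted p = 0.14). None of 35 respiratory chain and TCA cycle genes and none of 23 ribosomal protein genes passed the test (limma), 2 of the first and 1 of the second had an unadjusted p under 0.05, and the median amplitude of each list was 0.04. Other settings called at most 2 and 1. For ribosome biogenesis 1 of 30 genes was called (Nop16, a call lost in 16 of 26 settings), and 4 of 30 without ZT8 replicate 12 and ZT12 replicate 17.

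Genes of sterol export and bile formation peaked by day. Of 21 genes of bile acid synthesis and transport 10 were rhythmic, against 13.9% of all genes tested. Of these 10, 5 had a peak from ZT0 to ZT4 and 3 from ZT4 to ZT8. Their number ran from 8 to 12 over the other settings. The test for any time difference called 5 of the 21, against 5.04% of all genes tested. The list's median amplitude was 0.19. Abcg5 and Abcg8 encode the partners of the transporter that exports cholesterol into bile. Abcg5 had 1679, 1391 and 1405 at ZT0, 1881, 2535 and 1890 at ZT4, 2315, 2135 and 1948 at ZT8, 2082, 2536 and 2135 at ZT12, 1441, 1071 and 1482 at ZT16, and 1160, 1246 and 1125 at ZT20. Its 9 arrays from ZT4 to ZT12 were above all the others. The fitted peaks were at ZT7.9 ± 0.5 for Abcg5 and ZT6.7 ± 0.5 for Abcg8. Hsd3b7, an enzyme of bile acid synthesis, peaked at ZT1.2 ± 0.5. It had 3975, 4009 and 4365 at ZT0 and 3863, 3868 and 3864 at ZT4, against 3497, 3135 and 2282 at ZT8, 2463, 2921 and 2330 at ZT12, 2481, 2305 and 2813 at ZT16, and 3677, 2933 and 3515 at ZT20. Every ZT0 and ZT4 array of Hsd3b7 was above every array of the later times. The bile salt pump gene Abcb11 peaked at ZT0.3 ± 0.6 and Nr0b2 (SHP), the repressor of bile acid synthesis, at ZT3.4 ± 0.8 with the list's largest amplitude (0.64 ± 0.13). Cyp7a1, the rate-limiting enzyme, had an amplitude of 0.25 ± 0.13 and was not called (adjusted p = 0.35).

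Chaperone genes peaked close together in time. Of 19 tested heat shock chaperone genes 9 were rhythmic, against 13.9% of all genes tested. All 9 peaked between ZT18.7 and ZT20.2, late in the night. The test for any time difference called 7 of the 19, against 5.04% of all genes tested. The list's median amplitude was 0.23. Without ZT8 replicate 12 and ZT12 replicate 17 the count was 12, and over the other settings it was at least 7. Hspa4l had 295, 290 and 348 at ZT0, 273, 332 and 275 at ZT4, 270, 241 and 263 at ZT8, 264, 270 and 287 at ZT12, 401, 614 and 419 at ZT16, and 432, 523 and 411 at ZT20. All 6 arrays at ZT16 and ZT20 lay above the other 12. Its peak was at ZT18.7 ± 0.6 (0.42 ± 0.07, adjusted p = 0.0012). Hspb1, the small heat shock protein HSP27, had the largest amplitude of the list (0.69 ± 0.14, ZT19.9 ± 0.8). Hsph1 and Chordc1, whose promoters above carry the heat shock element, peaked at ZT19.1 ± 1.0 and ZT19.6 ± 0.9, with amplitudes of 0.47 ± 0.12 and 0.31 ± 0.07. Hsph1 had 574, 690 and 745 at ZT0, 362, 557 and 388 at ZT4, 475, 364 and 615 at ZT8, 498, 283 and 484 at ZT12, 859, 1299 and 691 at ZT16, and 660, 817 and 570 at ZT20. The highest array of Hsph1, at 1299, was ZT16 replicate 8, and ZT0 and ZT20 overlapped. Cirbp, a cold-inducible RNA-binding protein gene, ran the other way, with a peak at ZT5.8 ± 0.8 (0.37 ± 0.08, adjusted p = 0.0134). Its relative Rbm3 had 0.27 ± 0.08 at ZT13.0 ± 1.1 and was not called (adjusted p = 0.051).

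Genes of endoplasmic reticulum chaperones and the unfolded protein response had few stable calls. Of 25 genes 5 were rhythmic, a share of 20% against 13.9% of all genes tested, while 17 had an unadjusted p under 0.05 (limma). All 5 peaked from ZT20 to ZT24, among them Creld2 (amplitude 0.51 ± 0.13), Pdia4 (0.28 ± 0.06) and Hspa5, the chaperone BiP (0.25 ± 0.06). The mean log2 level of the 25 genes was 10.93 at ZT0, 10.70 at ZT4, 10.62 at ZT8, 10.55 at ZT12, 10.86 at ZT16 and 10.86 at ZT20. Creld2 had 1300, 1332 and 1265 at ZT0, 726, 1057 and 785 at ZT4, 803, 531 and 807 at ZT8, 722, 473 and 603 at ZT12, 809, 2469 and 940 at ZT16, and 1045, 1081 and 1118 at ZT20. The value of 2469 belongs to ZT16 replicate 8. Over the 25 genes that array had a mean log2 level of 11.31, against 10.58 and 10.68 in the other ZT16 arrays. Over the heat shock list it had 10.67, against 10.33 and 10.23. Without ZT16 replicate 8 the cosine called 13 of the 25 endoplasmic reticulum genes, with a mean peak at ZT23.0, and 10 of the 19 heat shock genes, with a mean peak at ZT20.2. Without ZT8 replicate 12 and ZT12 replicate 17 it called 2 of the 25. It also called 2 when ZT8 replicate 11, ZT12 replicate 16, ZT12 replicate 17 or ZT12 replicate 18 was left out, and 3 without ZT0 replicate 2, 22 or 23, ZT4 replicate 24, ZT16 replicate 9, or ZT20 replicate 14 or 15.

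**Figure D4:**
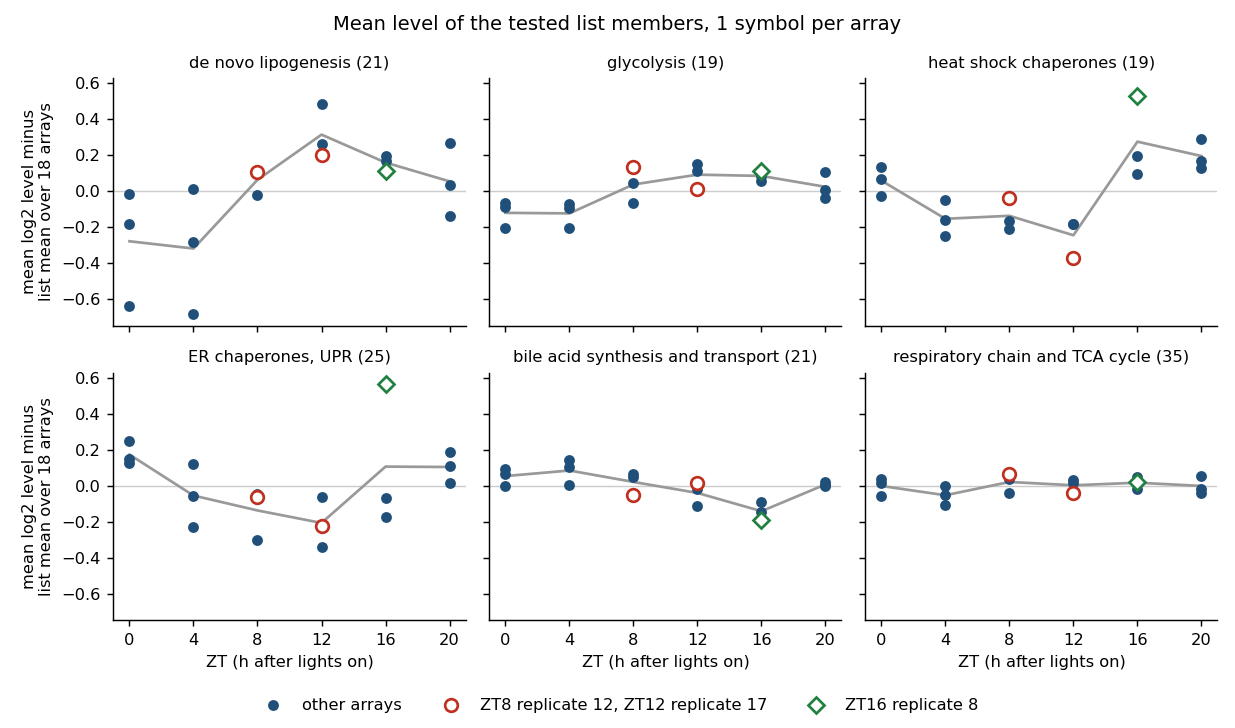
Mean log2 level of all tested members of 6 gene lists (number in brackets) in each array, minus the list's mean over the 18 arrays (y axis), by ZT (x axis, hours); the grey line joins the means of the 3 arrays, and UPR stands for unfolded protein response. The diamond, ZT16 replicate 8, is the highest array in the panels of heat shock and endoplasmic reticulum chaperones, and the respiratory chain and TCA cycle list stays near 0.

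Shares in the other function lists are to be read against the 13.9% of all genes tested. Of 31 genes of amino acid catabolism and the urea cycle 9 were rhythmic: Sds, serine dehydratase, led (0.67 ± 0.08, ZT9.8 ± 0.4), and Cbs, cystathionine beta-synthase, peaked at ZT2.4 ± 0.5. Of 32 drug-metabolizing genes 8 were rhythmic, 4 of them from ZT8 to ZT12 (Por, Cyp2a5, Nr1i2 and Alas1) and 4 from ZT16 to ZT20. Of 16 glucocorticoid-responsive genes 6 were rhythmic, among them Tsc22d3 (GILZ, 0.65 ± 0.10, ZT16.0 ± 0.6) and Fkbp5 (0.44 ± 0.08, ZT12.1 ± 0.7). Of 18 genes of NAD salvage and sirtuins 6 were rhythmic: Nampt and the nicotinamide riboside kinase gene Nmrk1 peaked at ZT12.1 and ZT12.8, with amplitudes of 0.53 each. Of 21 proteasome genes 5 were rhythmic and they peaked together between ZT23.5 and ZT3.0, with amplitudes of 0.10 to 0.20. Of 24 insulin and growth hormone signalling genes 7 were called and of 21 autophagy and lysosome genes 4. Smaller counts moved by over 1.5 times between settings: 5 of 21 proteasome genes (3 in the lowest setting), 5 of 19 NRF2 and glutathione genes (2 without ZT4 replicate 6 or ZT16 replicate 9), 5 of 15 cell cycle genes (3 without ZT8 replicate 11 or ZT20 replicate 14) and 2 of 15 interferon response genes (0 without ZT12 replicate 18). Without ZT8 replicate 12 and ZT12 replicate 17 the cosine called 2 of 14 immediate early and actin-SRF genes, against 4 with all arrays, and 3 of 23 acute phase and iron genes, against 5. Tubb2a, a tubulin gene of the actin-SRF list, had 0.89 ± 0.10 at ZT20.5 ± 0.4, and Ccne1, the cyclin E1 gene, 0.50 ± 0.07 at ZT7.7 ± 0.5. Among markers of other liver cells 4 of 8 endothelial, 2 of 8 stellate and 1 of 11 Kupffer cell markers were rhythmic; the mean log2 level of each list over time ran from 9.39 to 9.59, from 8.86 to 9.02 and from 8.97 to 9.17. The endothelial count was 1 without ZT0 replicate 22, 2 without ZT0 replicate 2 or ZT8 replicate 10, and 1 under either scaling, and the stellate count was 1 without ZT8 replicate 12 and ZT12 replicate 17. Of 2 tested cholangiocyte markers Sox9 was rhythmic (amplitude 0.45, peak ZT21.2), and the mean level of the pair ran from 8.78 to 9.41. The part of these markers in the rhythms above was not tested, and in whole liver a change in the number of cells of a type and in the RNA per cell cannot be told apart.

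**Figure D5:**
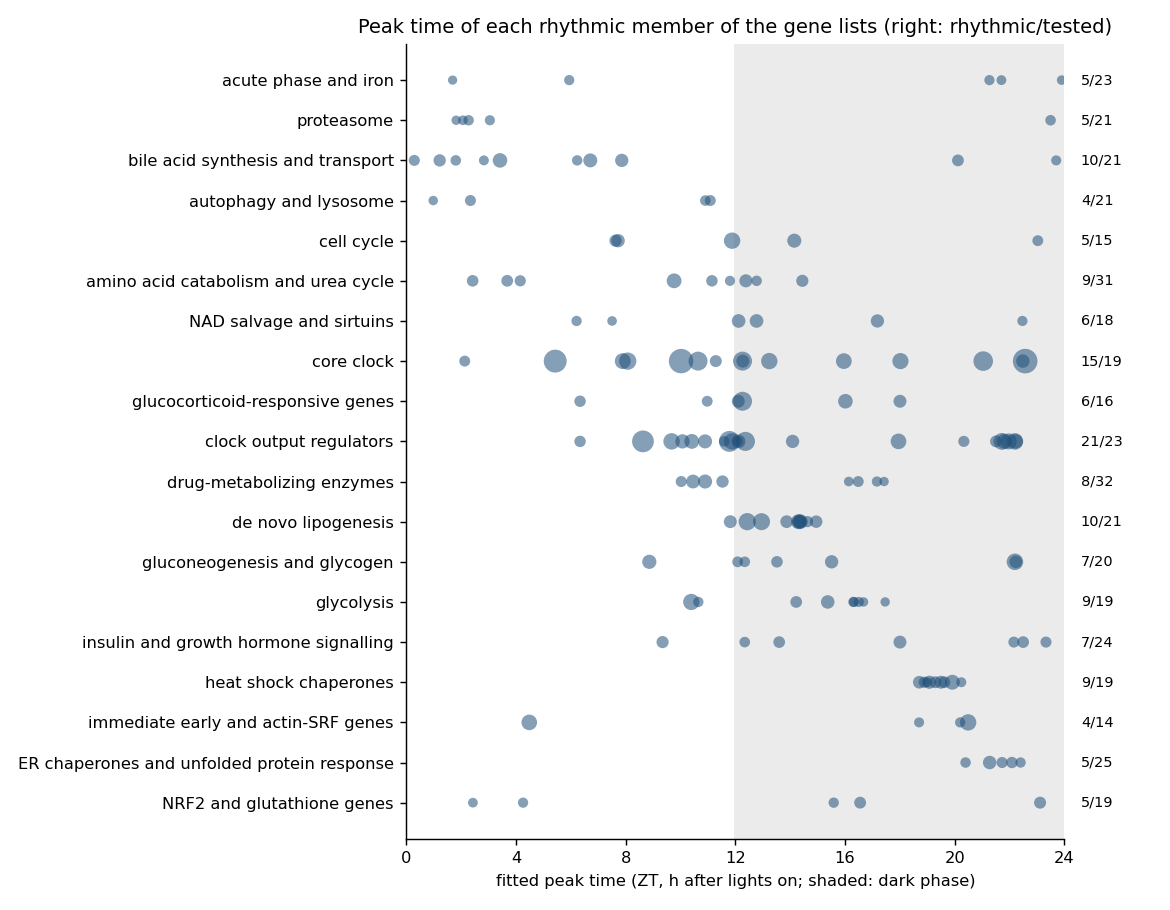
Fitted peak time (x axis, ZT in hours, dark phase shaded) of each rhythmic member of the gene lists with at least 4 rhythmic members, larger dots for larger amplitudes, and the number rhythmic of the number tested at the right. Heat shock chaperones cluster between ZT18.7 and ZT20.2 and lipogenic genes around ZT12 to ZT15, while the clock lists spread over the whole day.

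Comparing opposite phases gave the same leading genes. At ZT12 against ZT0, 555 genes differed (4.45%), 169 higher (1.36%) and 386 lower (3.1%) at ZT12. That split moved with the scale of the arrays, to 233 higher and 205 lower after quantile normalization and to 163 higher and 206 lower after median centring. The largest rises at ZT12 were those of Ciart (log2 difference 4.27 ± 0.45 SE, adjusted p = 7.65e-05), Usp2 (3.54 ± 0.26) and Per1 (2.78 ± 0.22), and the largest falls those of Npas2 (-4.20 ± 0.46), Arntl (-2.30 ± 0.32) and Spon2 (-1.94 ± 0.34), a secreted matrix protein gene. At ZT20 against ZT8, 315 genes differed (2.53%), 229 higher (1.84%) and 86 lower (0.69%) at ZT20, led by Npas2 (3.90 ± 0.46), Slc34a2 (3.21 ± 0.50) and Arntl (2.36 ± 0.32) and by falls of Ciart (-3.80 ± 0.45), Nr1d1 (-3.30 ± 0.41) and Dbp (-3.09 ± 0.34). At ZT16 against ZT4, 106 genes differed (0.851%), 46 higher (0.369%) and 60 lower (0.481%) at ZT16, but 92 higher and 57 lower after quantile normalization and 81 higher and 31 lower after median centring. Among the largest rises at ZT16 were those of Lonrf3 (1.6 ± 0.19) and Cry1 (1.47 ± 0.23), and the largest falls were those of Nr1d1 (-3.60 ± 0.41), the immediate early gene Egr1 (-2.10 ± 0.38) and Dbp (-1.71 ± 0.34). This last count rests on single arrays: it was 2 without ZT16 replicate 8, 5 without ZT4 replicate 6, 7 without ZT16 replicate 9, 11 without ZT4 replicate 4 and 387 without ZT8 replicate 12 and ZT12 replicate 17.

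In 4 of the 6 windows a gene outside the clock lists was among the 2 largest amplitudes. From ZT0 to ZT4 the phosphatase gene Phospho1 led (0.70 ± 0.12, peak ZT1.5 ± 0.7). It had 413, 196 and 223 at ZT0, against 86.0, 82.1 and 128 at ZT16. From ZT4 to ZT8 the lectin-like gene Clec2h (0.94 ± 0.18, ZT5.2 ± 0.7) followed Nr1d1. It had 113, 219 and 161 at ZT0, 231, 237 and 94.3 at ZT4, 207, 147 and 204 at ZT8, 53.5, 294 and 90.8 at ZT12, 49.1, 26.7 and 42.6 at ZT16, and 34.1, 60.4 and 102 at ZT20, and its highest array (294) was ZT12 replicate 17. From ZT16 to ZT20 the nuclear receptor gene Ppard led, just above Cry1 (0.89 ± 0.14, ZT19.6 ± 0.6). Ppard had 372, 237 and 482 at ZT0, 169, 197 and 191 at ZT4, 188, 182 and 263 at ZT8, 247, 212 and 286 at ZT12, 272, 336 and 407 at ZT16, and 1005, 709 and 984 at ZT20. The 3 ZT20 arrays of Ppard stood above all others. Slc34a2 had 1075, 670 and 333 at ZT20, against 66.9, 69.1 and 30.9 at ZT8.

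The authors' deposited table of rhythm tests covers 12383 of the tested genes. At a q-value under 0.05 it calls 597 of them in chow liver by JTK_CYCLE, and 570 of these were also called by the cosine, 95.5% of the JTK_CYCLE list and 32.9% of the cosine's calls in that table. By BIO_CYCLE the authors' deposited table calls 88, and 62 of these were also called by the cosine. That is 70.5% of the BIO_CYCLE list and 3.58% of the cosine's calls. Both deposited tests used the same arrays, so neither overlap is independent evidence. The JTK_CYCLE lag in the authors' deposited table was later than the fitted peak by a median of 1.27 h (quartiles 0.69 and 2.07 h) over the genes called by both. The lag comes with a period that varies by gene, such as 20 h for Clock and Npas2, while the cosine was fixed at 24 h. Lag and peak are therefore unlike measures. For Nr1d1 the authors' deposited table gives a JTK_CYCLE q-value of 0.0185 and for Per1 one of 0.00277, while the BIO_CYCLE q-value was 0.30 for each.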

How the data were processed

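Total RNA of chow liver was measured on 18 Affymetrix mouse gene arrays, 3 at each of 6 time points, grouped by the ZT, diet and tissue in the labels. Per the submitters' processing notes, the authors made 1 linear intensity per probe set and array with PLIER in Affymetrix Expression Console 1.1.1; background and normalization settings are not given in the sources used here. Their deposited workbook adds JTK_CYCLE and BIO_CYCLE p-values and q-values, and JTK_CYCLE lags and periods in hours (unit other). Its group mean intensity values equal the means of the 3 arrays with that label for all 25006 probe sets, within a relative difference of 0.0001. Arrays hold no read depth; their number bounds the precision.

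Deposited intensity was moved to log2(intensity + 16), and 8.25% of values were under 16. Symbols came from the platform table (21789 probe sets with 1 gene; 1621 with several were not named) or, for 1373, from the workbook through RefSeq; 10773 had none. Each of 20771 genes kept its brightest probe set. Of 101 named genes 12 had other probe sets; a dim one of Coq10b, Leo1 and Hspb1 did not follow the main one (r over 18 arrays 0.19, -0.04 and -0.30). Dropping genes whose mean level was under the 40th percentile left 12462.

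A 24 h cosine and sine, a 12 h pair beside them, and the 6 time point means were fitted with limma 3.58.1 (lmFit, eBayes) in R 4.3.3, with moderated F tests and contrasts, two-sided, Benjamini-Hochberg adjusted over all tested genes, threshold 0.05. Peak and amplitude errors are standard errors by the delta method. Python 3.11.15, pandas 2.3.3, numpy 2.4.6 and matplotlib 3.10.9 did the rest. The tests were tested on simulated data.

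The members and gene lists were chosen with earlier results of these data known. Genes named were the clock and clock output lists, up to 3 rhythmic members with the smallest adjusted p of each other list, the 10 largest amplitudes, 2 per 4 h window, and the 3 largest rises and falls per contrast; predicted genes and RIKEN clones were skipped, and some genes the rule names are not reported here. Other list members, and the genes given beyond the lists, were chosen after their values were seen. The alternatives tried were: scaling by quantiles or by array medians, no filter on low values or one at the 60th percentile, all 36 liver arrays in 1 fit, eBayes with trend and robust settings, 1 as the pseudocount, a minimum amplitude of 0.25, each array left out, and ZT8 replicate 12 and ZT12 replicate 17 left out together. In the fit of 36 liver arrays chow and ketogenic livers each had their own terms, and only the chow terms were tested. The peak windows under scaling and the list counts under each setting were added after seeing the data.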

Additional observations from a re-analysis of the deposited data

How the results depend on the processing

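The 24 h count of 1738 genes was 1155 after median centring and 493 with an amplitude of at least 0.25; with single arrays left out it ran from 1233 to 1844. The any-time count of 628 was 1263 with 36 liver arrays in the fit and 945 without ZT8 replicate 12 and ZT12 replicate 17, and 399 to 799 with single arrays left out (lowest without ZT12 replicate 18). The 12 h count of 0 was 1 with no filter on low values and 0 with any single array left out. ZT12 against ZT0 gave 360 genes with no filter and 369 with median centring, 801 without the pair, and 255 to 649 with single arrays left out. ZT16 against ZT4 gave 53 with no filter, 183 with the 60th percentile filter, 495 with 36 arrays and 387 without the pair, and 2 to 273 with single arrays left out. ZT20 against ZT8 gave 208 with no filter and 541 with 36 arrays, and 147 to 339 with single arrays left out. The share that peaked from ZT20 to ZT24 was 29.7% without the pair, 32.7% with 36 arrays, 28.7% after median centring and 25.5% after quantile normalization. Fewer residual degrees of freedom or genes tested enter some of these settings; the cause of the other shifts was not tested. Of the amplitude results of named genes over all settings 2481 kept their side of the threshold, 126 lost the call and 8 gained it; of the contrast results 448 kept it and 15 lost it, and no direction turned. Of the list counts 768 stayed within 1.5 times and 142 did not. No paired analysis was possible because no replicate number occurs at more than 1 time point. Folds of dim genes are understated near the pseudocount, and 3 arrays per time point limit the precision.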

Other observations

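A set of 41 genes differed between time points without following a 24 h cosine, and the values below were chosen after they were seen. Of these 41 genes 16 were lowest at ZT12, the time point whose arrays had the lowest median level. Among the 8 that were highest at ZT0 were Dnajb9, Creb3l2, Eif2ak3 and Syvn1, which belong to the unfolded protein response, and Igfbp1, a liver gene that insulin lowers. Dnajb9, the ER chaperone ERdj4, had 2987, 2483 and 3087 at ZT0, 1504, 1587 and 1737 at ZT4, 1654, 1638 and 2212 at ZT8, 2304, 1641 and 1771 at ZT12, 1988, 2348 and 1994 at ZT16, and 2026, 1921 and 2041 at ZT20. All its ZT0 arrays were above all others. Eif2ak3, the PERK kinase gene, had 446, 363 and 437 at ZT0, against 224 to 344 at the later times, again without overlap. Creb3l2 had 907, 926 and 849 at ZT0, against at most 724 in the later arrays. Igfbp1 had 965, 804 and 1237 at ZT0, 374, 333 and 321 at ZT4, 396, 170 and 477 at ZT8, 467, 625 and 888 at ZT12, 664, 608 and 566 at ZT16, and 354, 434 and 775 at ZT20. Syvn1, a ubiquitin ligase gene of ER-associated degradation, had 2335, 2244 and 2077 at ZT0, 1288, 1532 and 1455 at ZT4, 1366, 1124 and 1616 at ZT8, 1419, 1138 and 1115 at ZT12, 1653, 3013 and 1603 at ZT16, and 1463, 1652 and 1619 at ZT20. Its highest array, 3013, was ZT16 replicate 8, above every ZT0 array. In these values ZT0, the first time point after the night, stood above ZT4 in every array of the 5 genes.

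The probe set of Mir122, the precursor of the most abundant liver microRNA, had a rhythm of amplitude 0.61 ± 0.07 with a peak at ZT0.5 ± 0.5 (limma, adjusted p = 8.98e-05). It had 1324, 755 and 899 at ZT0, 839, 812 and 839 at ZT4, 550, 484 and 657 at ZT8, 455, 477 and 380 at ZT12, 377, 455 and 580 at ZT16, and 1028, 761 and 736 at ZT20. The arrays at ZT20, ZT0 and ZT4 were all above those of the other times. The array does not measure the mature microRNA.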
